A study of Mus musculus with 2 samples.

Results

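Antioxidant and glutathione genes encode the enzymes and small proteins with which a cell disposes of superoxide, peroxides, electrophiles and free metal ions. They were taken here by symbol and not by their values, though the choice was made with earlier results of these data known. The rule took the numbered glutathione S-transferases (Gsta, Gstk, Gstm, Gsto, Gstp, Gstt and Gstz), the microsomal transferases (Mgst), the glutathione peroxidases (Gpx) and the peroxiredoxins (Prdx). To these it added 22 single genes, which were the superoxide dismutases, catalase, thioredoxins and their reductases, Txnip, Nqo1, the heme oxygenases, the enzymes that make and reduce glutathione, Srxn1, Nfe2l2, Keap1 and the metallothioneins Mt1, Mt2 and Mt3. In all, 62 of the 24354 genes measured were members, and all 62 were found in the GENCODE vM21 annotation of GRCm38, from which gene coordinates are given.

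Poly(A) RNA came from 2 cultures of mouse ESCs under differentiation, 1 of a control line (Diff–CONT) and 1 of a line with an inducible Ino80 knockout (Diff–iKO). The study asked how loss of Ino80, the ATPase of the INO80 chromatin remodeler, alters gene expression as ESCs differentiate toward mesoderm. The methods derive the control line from Ino80 2f/2f blastocysts and the knockout line from Ino80 2f/2f;ROSA26-CreER blastocysts, so that both carry the floxed allele, while the labels call the control WT. Both cultures had 2 days in serum medium, formed EBs in medium with 8% serum replacement (KSR), and were moved to coated dishes at day 4. They were then grown for 7 days with 15% serum, BMP4 and 0.5 µM 4-OHTM, which activates CreER. This medium also held sodium pyruvate and β-mercaptoethanol, a thiol. The ROSA26 locus is active in nearly all cell types, so the design does not limit CreER to 1 lineage. The controls thus shared the 4-OHTM and the thiol and, by the methods, lacked CreER.

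Each group had 1 library, so no difference below has a replicate check and no p-value is given. Values are FPKM, the fragments scaled to transcript length and library size, as deposited. The log2 ratio is that of the library labelled Diff–iKO over Diff–CONT. Steps in the low values gave about 28272632 fragments on genes in Diff–CONT and 22006718 in the other library. The 95% intervals after log2 ratios are exact (Clopper-Pearson) and come from the recovered fragments of each gene. They cover counting error only and not the spread between cultures. Ino80 itself (chr2:119373042-119477687) was at 8.90 FPKM in the control and 10.3 in the library labelled Diff–iKO. Its log2 ratio was 0.21 (0.11 to 0.31). It was thus no lower under the knockout label, but whole-gene FPKM does not show whether the floxed exons are present. Genotyping and qRT-PCR of the deletion, which the study ran on undifferentiated ESCs, were not analysed here. Markers of several cell types differed too. Summed FPKM of 8 undifferentiated ES cell markers was 215 in Diff–CONT and 835 in the other library, that of 9 visceral endoderm markers was 218 and 7.58, and that of 9 primitive erythroid markers was 189 and 1.20. In bulk RNA, fewer cells of a type and less RNA per cell cannot be told apart.

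Many of these genes answer to the transcription factor NRF2, encoded by Nfe2l2. KEAP1 holds NRF2 in the cytoplasm and sends it for degradation until oxidants or electrophiles modify KEAP1, after which NRF2 pairs with small MAF proteins and binds antioxidant response elements (AREs) near its target genes. Glutathione is a tripeptide thiol that peroxidases use to reduce peroxides and that transferases join to electrophiles, and thioredoxin is the protein thiol that reduces peroxiredoxins. Metallothioneins bind zinc and copper through cysteines, and the zinc sensor MTF1 induces them through metal response elements (MREs) in their promoters.

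The RefSeq promoter table (GRCm38.p6) covers 250 bases before to 50 bases after each annotated start, and it held 69 promoters of 53 members. These windows were searched on both strands for the MRE core, written TGCACNC or TGCGCNC, for the ARE core TGACNNNGC, and for TGANTCAGC, the core that NRF2 and small MAF proteins are known to share. The last motif was added after the promoters had been seen. A window with a TGACTCAGC site counts for both of the last motifs. At least 1 MRE core was found in 25.7% of all 32851 promoters and 29.0% of member promoters, and at least 2 in 7.11% and 8.70%. At least 3 were found in 1.97% of all promoters and in 3 member promoters, or 4.35%, those of Mt1, Mt2 and Gclm. At least 4 were found in 0.518% of all promoters and, among members, in Mt2 alone. These 3 promoters are shown because the genes were past the cut-off given below and because of the repeated cores, which are in capitals. Each sequence runs 5′ to 3′ in the direction of the gene and ends 30 bases after the start.
Mt1, chr8:94178839-94179118 (+ strand): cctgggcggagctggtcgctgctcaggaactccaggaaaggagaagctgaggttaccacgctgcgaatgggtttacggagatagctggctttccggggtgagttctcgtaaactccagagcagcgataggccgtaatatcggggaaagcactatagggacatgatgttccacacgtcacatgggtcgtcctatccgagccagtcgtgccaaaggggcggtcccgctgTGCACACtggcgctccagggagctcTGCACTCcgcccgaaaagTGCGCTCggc
Mt2, chr8:94172368-94172647 (+ strand): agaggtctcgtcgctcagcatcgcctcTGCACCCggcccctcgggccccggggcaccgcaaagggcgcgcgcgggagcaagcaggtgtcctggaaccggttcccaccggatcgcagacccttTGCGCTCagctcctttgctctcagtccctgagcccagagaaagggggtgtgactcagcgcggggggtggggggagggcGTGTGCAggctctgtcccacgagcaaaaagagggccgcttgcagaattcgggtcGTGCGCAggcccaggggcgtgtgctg
Gclm, chr3:122245307-122245586 (+ strand): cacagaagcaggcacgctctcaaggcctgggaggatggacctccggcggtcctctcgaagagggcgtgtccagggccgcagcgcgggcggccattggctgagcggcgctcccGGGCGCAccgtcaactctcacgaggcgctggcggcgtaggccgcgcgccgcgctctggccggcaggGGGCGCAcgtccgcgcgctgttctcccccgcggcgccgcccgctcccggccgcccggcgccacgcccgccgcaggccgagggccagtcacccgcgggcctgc

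In Mt1 the 3 cores began 23 bases before the start and 2 and 20 bases after it. In Mt2 they began 223, 128 and 50 bases before the start and 4 bases after it, the last 2 on the opposite strand. In Gclm they began 138 and 72 bases before the start, both on the opposite strand, and 27 bases after it, where the third runs past the printed end. The Mt2 window also held a TGANTCAGC match 79 bases before the start, left in lower case.

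TGANTCAGC was found in 1.19% of all promoters and in 5 of the 69 member promoters, which were those of Srxn1, Prdx1, Gstp1, Gstp2 and Mt2. Mt2 is printed above and the other 4 are shown here. All 5 genes had log2 ratios above 0, as did 32 of the 52 members that reached the FPKM minimum given below, and since the motif was chosen with the promoters known, nothing is read from this. The site is in capitals, and in Prdx1 it lies on the opposite strand.
Srxn1, chr2:152105274-152105553 (+ strand): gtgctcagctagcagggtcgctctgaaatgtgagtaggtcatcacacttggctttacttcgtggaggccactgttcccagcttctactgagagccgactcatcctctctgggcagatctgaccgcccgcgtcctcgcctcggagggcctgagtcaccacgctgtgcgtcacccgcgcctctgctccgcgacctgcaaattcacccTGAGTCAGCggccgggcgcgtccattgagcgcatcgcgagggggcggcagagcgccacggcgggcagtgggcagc
Prdx1, chr4:116685349-116685628 (+ strand): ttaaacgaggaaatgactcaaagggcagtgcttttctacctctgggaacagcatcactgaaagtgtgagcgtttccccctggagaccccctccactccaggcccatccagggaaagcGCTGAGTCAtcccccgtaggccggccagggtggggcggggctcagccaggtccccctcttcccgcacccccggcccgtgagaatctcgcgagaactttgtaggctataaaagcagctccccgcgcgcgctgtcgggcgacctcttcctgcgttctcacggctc
Gstp1, chr19:4037883-4038162 (- strand): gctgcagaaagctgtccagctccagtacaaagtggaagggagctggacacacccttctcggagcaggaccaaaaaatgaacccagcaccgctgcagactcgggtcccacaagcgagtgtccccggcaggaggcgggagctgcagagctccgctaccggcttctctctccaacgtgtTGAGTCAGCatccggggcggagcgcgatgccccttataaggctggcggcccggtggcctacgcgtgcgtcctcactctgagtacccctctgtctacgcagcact
Gstp2, chr19:4042192-4042471 (- strand): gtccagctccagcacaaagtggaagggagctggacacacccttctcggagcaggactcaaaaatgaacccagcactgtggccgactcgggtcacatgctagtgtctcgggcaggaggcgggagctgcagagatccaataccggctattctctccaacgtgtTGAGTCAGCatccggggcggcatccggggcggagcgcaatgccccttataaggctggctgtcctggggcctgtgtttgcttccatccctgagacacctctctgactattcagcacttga

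The sites began 45 bases before the start in Srxn1, 133 in Prdx1, 74 in Gstp1 and 89 in Gstp2. Positions are counted from RefSeq starts, which can differ from the GENCODE gene coordinates. The RefSeq start of Gstp2 lies inside its GENCODE gene. The neighbouring Gstp1 and Gstp2 held the same letters, TGAGTCAGC. The looser ARE core was found in 11 of 69 member promoters, or 15.9%, and in 12.4% of all promoters. Of these members Gclm, Mt2, Sod1 and Srxn1 were higher past the cut-off and Gstm7 was lower past it. Nfe2l2, Prdx1 and Txnrd1 had ratios above 0 within the cut-off, Mgst1 and Gstm5 had ratios below 0, and Gsta3 was under the FPKM minimum. Among members past the cut-off, the windows of Nqo1, Mgst3, Gpx2, Gpx4, Gstm3, Mt1, Gpx3 and Gstt1 held neither motif. That of Keap1 held neither as well. Sites more than 250 bases before the start lie outside the search. Hmox1, Gclc, Gsr, Prdx6, Gsta4, Gstt2 and Sod3 had no entry. A match is a string of letters and not a measured binding site.

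A gene was called when its FC was at least 2 and its FPKM at least 2 in at least 1 library. The values of 2 are those of the study, and applying the minimum to at least 1 library was set here. Of the 62 members, 52 reached the FPKM minimum. Of these 52, 12 were higher in the library labelled Diff–iKO, or 23.1%, against 6.73% of the 12376 genes that reached the minimum. Lower were 3 members, or 5.77%, against 8.39% of all such genes. The median log2 ratio of the 52 members was 0.49, and that of all such genes was -0.00435. The ratio was above 0 in 32 members, and it was so in 49.7% of all such genes. The counting interval lay above 0 for 28 members, below 0 for 13 and included 0 for 11. Of the 12279 genes with an interval, it lay above 0 for 38.7% and below 0 for 39.2%. With 1 library per group these shares describe 2 cultures, and the members were chosen with earlier results of these data known.

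The 12 higher members were Gstp2, Mt2, Gpx4, Srxn1, Nqo1, Gpx2, Hmox1, Sod1, Mt1, Gstm3, Gclm and Mgst3. The 3 lower members were Gstt1, Gpx3 and Gstm7. On the higher side, Mgst3 was just inside the cut-off with a log2 ratio of 1.04 and Prdx1 just outside with 0.82. On the lower side these were Gstm7 with -1.25 and Txnip with -0.88. Summed over all 62 members, FPKM was 2799 in the control and 4427 in the other library, or 0.636% and 0.943% of the FPKM of all genes. The 4 members with the largest rise in FPKM, Sod1, Gpx4, Mt2 and Prdx1, made up 1334 of the difference of 1628, and the other 58 members summed to 1943 and 2237.

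**Figure D1:**
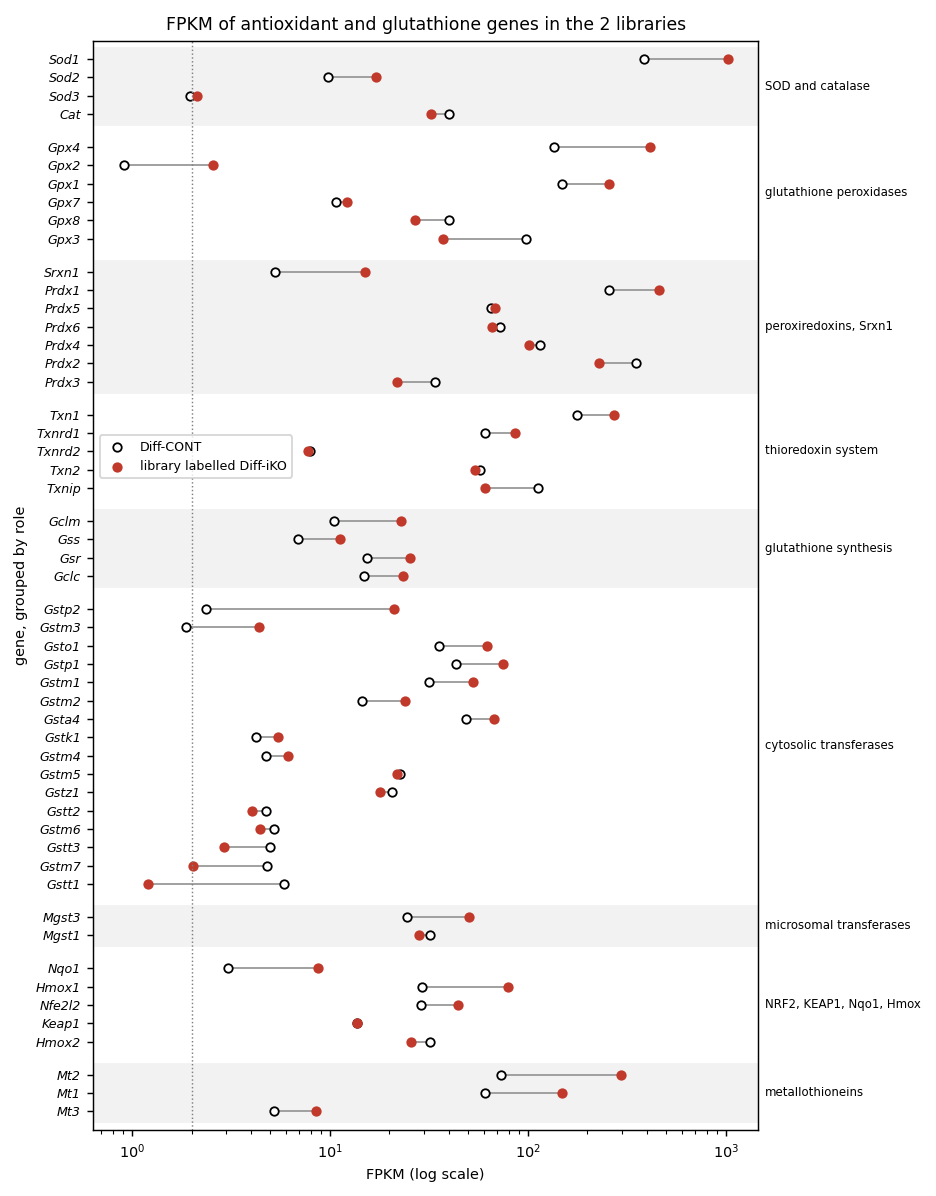
FPKM (log scale) of the 52 members that reached an FPKM of 2 (dotted line) in at least 1 library, grouped by role, with open circles for Diff–CONT and filled circles for the library labelled Diff–iKO, 1 library each. Sod1 reached 1024 FPKM, while Gstp2 moved from 2.36 to 21.1 and Gstt1 from 5.83 to 1.20.

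Superoxide dismutases turn superoxide into hydrogen peroxide, which catalase breaks down. Sod1 (chr16:90220754-90226329), the cytosolic copper-zinc enzyme, was at 388 FPKM in Diff–CONT and 1024 in the other library, a log2 ratio of 1.40 (1.35 to 1.45). That moved it from rank 143 to rank 57 among all genes by FPKM. Sod2, the mitochondrial manganese enzyme, was at 9.81 and 17.1, a log2 ratio of 0.80 (0.71 to 0.90), which is under the cut-off. Sod3, the secreted enzyme, was near the minimum in both libraries at 1.95 and 2.13. Catalase (Cat), the peroxisomal enzyme, was at 39.9 and 32.6, a log2 ratio of -0.29 (-0.38 to -0.21). So 1 of 4 genes of this group passed the cut-off, and only Cat had the lower value in the library labelled Diff–iKO.

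Glutathione peroxidases use glutathione to reduce peroxides. Gpx4 (chr10:80047166-80056439), which reduces lipid hydroperoxides in membranes and guards against ferroptosis, was at 135 and 413 FPKM, a log2 ratio of 1.61 (1.55 to 1.68). Gpx1, the abundant cytosolic form, was at 148 and 258, a log2 ratio of 0.80 (0.74 to 0.86). Gpx1 thus had the higher FPKM of this pair in Diff–CONT and Gpx4 in the library labelled Diff–iKO. Gpx3 (chr11:54902453-54910377), the secreted plasma form, went the other way, from 98.1 to 37.4, a log2 ratio of -1.39 (-1.49 to -1.30). Gpx2, known from the gut epithelium, was at 0.908 and 2.58 on 22 and 47 fragments, and the interval of its log2 ratio, 0.76 to 2.32, includes the cut-off. Of 9 members, 6 reached the minimum, 2 of them were higher and 1 was lower. The other 2 tested, both of the endoplasmic reticulum, were Gpx7, at 10.7 and 12.2 with a log2 ratio of 0.18 (-0.04 to 0.41), and Gpx8, at 40.2 and 26.8 with -0.58 (-0.74 to -0.43). Gpx5 was listed at 0 in both libraries, and Gpx6 and Gpx2-ps1 stayed under 1 FPKM.

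Peroxiredoxins reduce hydrogen peroxide with thioredoxin, and sulfiredoxin (Srxn1) rescues them once they are overoxidised. Srxn1 (chr2:152105516-152111376), whose promoter is printed above, was at 5.30 and 15.1 FPKM, a log2 ratio of 1.51 (1.34 to 1.68). It was the only member of 7 tested in this group past the cut-off. Prdx1, the main cytosolic peroxiredoxin, was at 259 and 458, a log2 ratio of 0.82 (0.79 to 0.85). Prdx2, its close cytosolic relative and an abundant protein of red cells, was at 351 and 228, a log2 ratio of -0.62 (-0.67 to -0.58). The order of the pair therefore differed, with Prdx2 above Prdx1 in Diff–CONT and below it in the library labelled Diff–iKO. Prdx4, of the endoplasmic reticulum, was at 116 and 101, and the mitochondrial Prdx3 was at 34.0 and 21.9, a log2 ratio of -0.63 (-0.77 to -0.50). Prdx5 was at 65.1 and 68.1 and Prdx6, which also acts on phospholipids, was at 72.2 and 65.9, with log2 ratios of 0.07 and -0.13. Prdx6b, a copy of Prdx6, was at 0.0123 and listed at 0. Markers of primitive erythroid cells moved with Prdx2. All 4 that reached the minimum were lower, and Hbb-bh1 and Hba-x were at 88.2 and 54.9 FPKM in Diff–CONT and listed at 0 in the other library. The part of erythroid cells in the Prdx2 values was not tested.

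Thioredoxin is kept reduced by thioredoxin reductase and is bound and inhibited by TXNIP. None of the 5 genes passed the cut-off, and their median log2 ratio was -0.04. Txn1, the cytosolic thioredoxin, was at 177 and 271 FPKM, a log2 ratio of 0.62 (0.56 to 0.67). Txnrd1, its reductase, was at 60.7 and 86.6, a log2 ratio of 0.51 (0.45 to 0.58). The mitochondrial Txn2, at 57.0 and 53.9, and Txnrd2, at 7.95 and 7.75, had intervals that include 0. Txnip was at 112 and 60.9, a log2 ratio of -0.88 (-0.94 to -0.83). Within this group the cytosolic pair and its inhibitor thus had ratios of opposite sign, each beyond counting error and each under the cut-off.

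**Figure D2:**
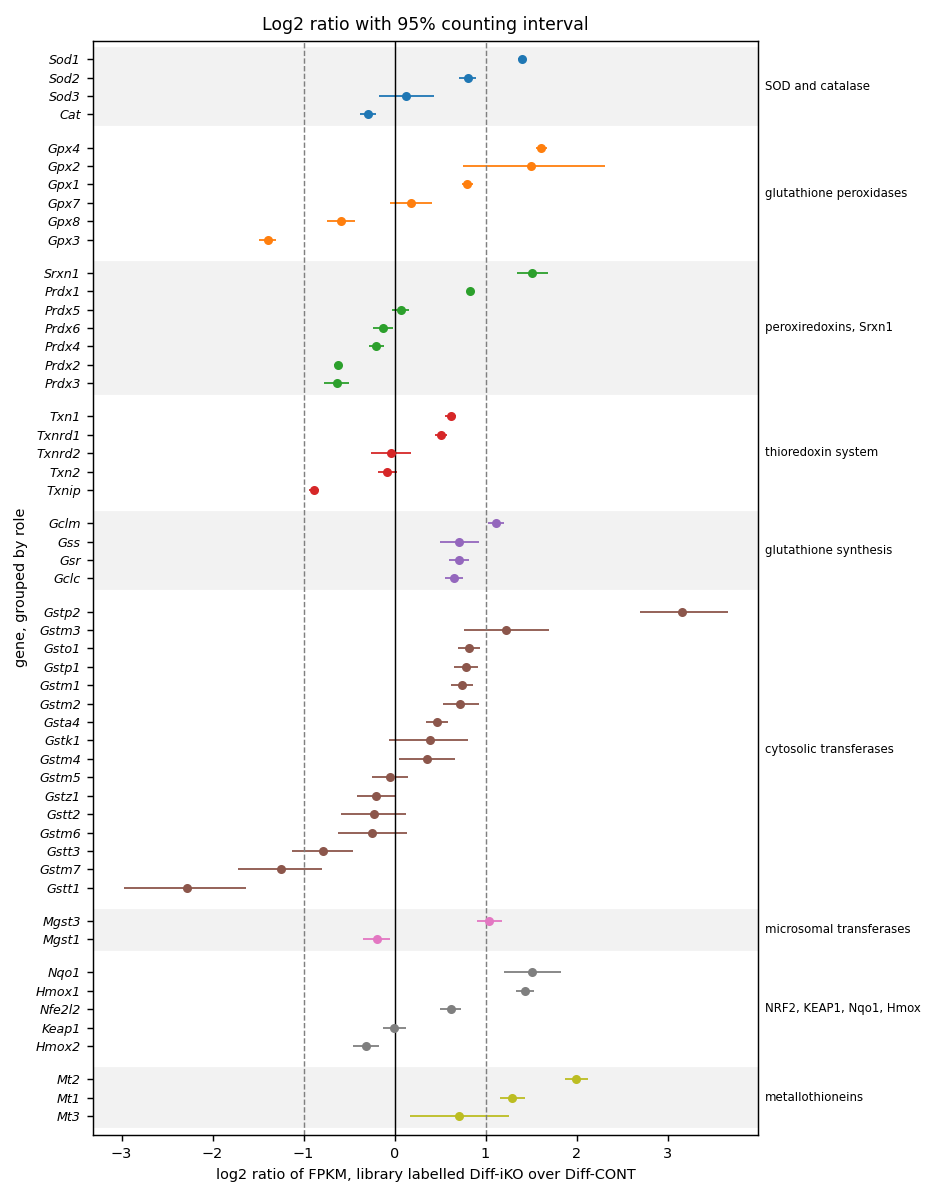
Log2 ratio of FPKM of the same 52 members, the library labelled Diff–iKO over Diff–CONT, with bars for the 95% counting interval, a solid line at 0 and dashed lines at the cut-off of 2-fold. All 4 genes of glutathione synthesis and all 3 metallothioneins lie right of 0, while peroxiredoxins and transferases lie on both sides.

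Glutathione is made in 2 steps, by glutamate-cysteine ligase and by glutathione synthetase, and its oxidised form is reduced by glutathione reductase. All 4 genes had intervals above 0, and 1 passed the cut-off. Gclm (chr3:122245557-122270732), the modifier subunit that makes the ligase more efficient, was at 10.5 and 22.8 FPKM, a log2 ratio of 1.12 (1.03 to 1.21). Gclc, the catalytic subunit, was at 14.9 and 23.4, a log2 ratio of 0.65 (0.55 to 0.76). The level of Gclm per Gclc was 0.706 in the control and 0.976 in the other library. Gss, the synthetase, was at 6.88 and 11.3, and Gsr, the reductase, was at 15.5 and 25.3, with a log2 ratio of 0.71 for each. The median of the 4 genes was 0.71.

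Cytosolic glutathione transferases join glutathione to electrophiles. This is the largest group, with 21 members, of which 16 reached the minimum. Of these, 2 were higher, 2 were lower, and 9 had ratios above 0, with a median of 0.37. Gstp2 (chr19:4040285-4046023) was at 2.36 and 21.1 FPKM, a log2 ratio of 3.16 (2.698 to 3.66) on 43 and 288 fragments, which was the highest of the 52 members. Gstp1, the pi-class gene next to it, was at 43.4 and 74.9, a log2 ratio of 0.79 (0.65 to 0.92). Their transcripts share much sequence, 72.6% of the 50-base words of Gstp2 and 62.3% of those of Gstp1 being found in other genes, mostly in each other, so reads can be split between them. Summed, the pair was at 45.7 and 96.0 FPKM, an FC of 2.10.

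The lowest ratio of the 52 members was that of Gstt1 (chr10:75783813-75798584), a theta-class transferase, at 5.83 and 1.20 FPKM and a log2 ratio of -2.28 (-2.98 to -1.64). The theta genes lie within 63.3 kb on chromosome 10. Gstt3 was at 5.00 and 2.91, a log2 ratio of -0.78 (-1.12 to -0.46), and Gstt2 at 4.76 and 4.06, with an interval that includes 0. None of the 3 that reached the minimum had a ratio above 0, and their sum with Gstt4, which was listed at 0, was 15.6 and 8.17. The 7 mu-class genes lie within 149 kb on chromosome 3, and 4 had ratios above 0. Gstm3 was at 1.87 and 4.38, a log2 ratio of 1.23 (0.76 to 1.70), and Gstm7 was at 4.82 and 2.03, a log2 ratio of -1.25 (-1.72 to -0.80). The 2 differed in direction beyond counting error although they belong to 1 cluster. Of the words of Gstm3, 28.8% are shared with other genes. Between these extremes, Gstm1 was at 31.5 and 52.8, Gstm2 at 14.5 and 24.0 and Gstm4 at 4.78 and 6.14, with log2 ratios of 0.74, 0.72 and 0.36 and intervals above 0. The intervals of Gstm5, at 22.5 and 21.7, and Gstm6, at 5.24 and 4.42, included 0. The other abundant transferases were Gsta4, which joins glutathione to lipid aldehydes, at 48.8 and 67.5, and Gsto1, at 35.4 and 62.4 FPKM, with log2 ratios of 0.47 and 0.82. Gstk1, a mitochondrial and peroxisomal enzyme, was at 4.21 and 5.50, and Gstz1, an enzyme of tyrosine breakdown, at 20.6 and 17.8, both with intervals that include 0. Of the 5 members under the minimum, Gsta1, Gsta2 and Gstt4 were listed at 0 in both libraries, Gsta3 was at 0.251 and 1.61, and Gsto2 was at 0.685 and 0.374.

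Microsomal transferases sit in membranes. Mgst3 (chr1:167371966-167393841) was at 24.6 and 50.7 FPKM, a log2 ratio of 1.04 (0.90 to 1.19) that includes the cut-off, and Mgst1 was at 32.1 and 28.1, a log2 ratio of -0.19 (-0.34 to -0.05). Mgst2 was under the minimum at 0.827 and 0.550.

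Neither NRF2 nor its inhibitor passed the cut-off. Nfe2l2 was at 28.9 and 44.4 FPKM, a log2 ratio of 0.62 (0.50 to 0.73), whereas Keap1 was at 13.7 in both libraries. The interval of its log2 ratio, -0.13 to 0.12, lay well inside the cut-off in both directions. The difference of the 2 log2 ratios was 0.62 (0.45 to 0.79). The activity of NRF2 depends on its protein, which was not measured here. The best known NRF2 target genes, Nqo1 and Hmox1, both passed the cut-off. Nqo1 (chr8:107388225-107403206), a quinone reductase, was at 3.05 and 8.67, a log2 ratio of 1.51 (1.20 to 1.83). Hmox1 (chr8:75093621-75100589), the inducible heme oxygenase, was at 29.3 and 79.2, a log2 ratio of 1.43 (1.33 to 1.53). Hmox2, the constitutive form, was at 32.1 and 25.8, a log2 ratio of -0.32 (-0.46 to -0.17), so Hmox1 was below Hmox2 in Diff–CONT and above it in the other library.

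The metallothioneins had the highest median of the 9 role groups, 1.30. Mt1 was at 60.9 and 149.5 FPKM, a log2 ratio of 1.30 (1.16 to 1.44). Mt2, with 4 MRE cores in its printed promoter, was at 73.6 and 294, a log2 ratio of 2.00 (1.88 to 2.12). Mt3, known from brain, was at 5.21 and 8.55, a log2 ratio of 0.71 (0.17 to 1.26). The 3 genes lie within 27.7 kb of chromosome 8 and summed to 140 and 452 FPKM. Mt4, the fourth mouse gene of the family and no member, was at 0.162 and 1.92, under the minimum.

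Several enzymes come in forms for different compartments, and their ratios were compared within the pair. The pairs were chosen after their values were seen. Sod1 in the cytosol exceeded Sod2 in mitochondria by 0.60 in log2 ratio (approximate 95% counting interval 0.49 to 0.70), Txn1 exceeded Txn2 by 0.70 (0.58 to 0.81), and Txnrd1 exceeded Txnrd2 by 0.55 (0.32 to 0.77). Prdx1 exceeded the mitochondrial Prdx3 by 1.46 (1.32 to 1.60). Prdx2, which is cytosolic as well, differed from Prdx3 by 0.01 (-0.13 to 0.15), and Prdx5, which is mitochondrial in part, had a ratio above those of Prdx2 and Prdx6. Since the pairs were chosen on their values, no pattern by compartment is read from them. Of the forms made for the secretory pathway or export, Gpx3, Gpx8 and Prdx4 had ratios below 0, and Sod3 and Gpx7 had intervals that include 0.

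**Figure D3:**
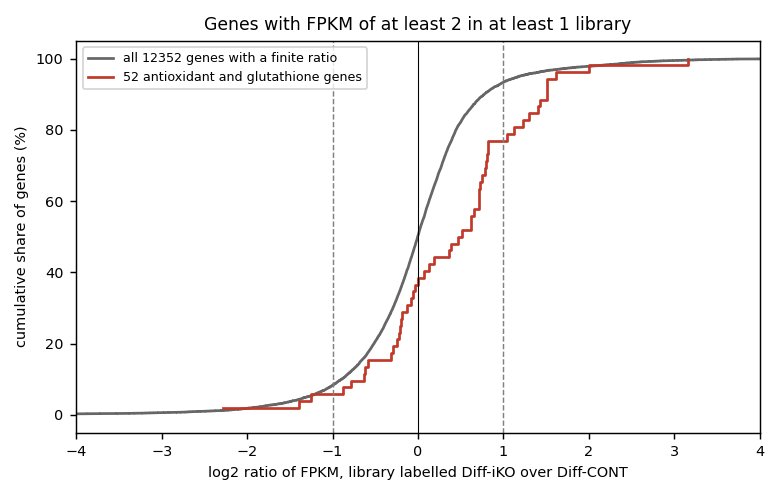
Cumulative share of genes (%) by log2 ratio for the 52 members (red steps) and for all genes with an FPKM of at least 2 in at least 1 library and a finite ratio (grey), with dashed lines at the 2-fold cut-off. The member line runs right of the grey line between the dashed lines, and 23.1% of members against 6.73% of all genes lie past the upper cut-off.

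Transcript length moved with the ratios. Over all genes tested, the median log2 ratio was 0.16 for transcripts of at most 600 bases and fell to -0.06 for those over 4000 bases. Among genes with a RefSeq transcript of at most 1000 bases, 13.0% were higher, and 5 of the 13 members of that length were, which were Mt1, Mt2, Sod1, Gstp2 and Gpx4. Among longer genes 5.96% were higher, as were 7 of 39 members, or 17.9%, and 8.44% were lower, as were 3 of the 39 members. None of the 13 short members was lower, against 8.17% of short genes. The part of length in the member values was not tested beyond this split. Shared sequence was also looked at. In 12 of the 61 members with a transcript sequence, over 10% of the 50-base words occur in other genes or pseudogenes. They include Gpx4 at 41.6%, shared with the pseudogene Gpx4-ps2, and Sod1 at 23.1%, shared with Gm8566. Without such members, 7 of 42 were higher and 3 were lower, with a median of 0.27.

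**Figure D4:**
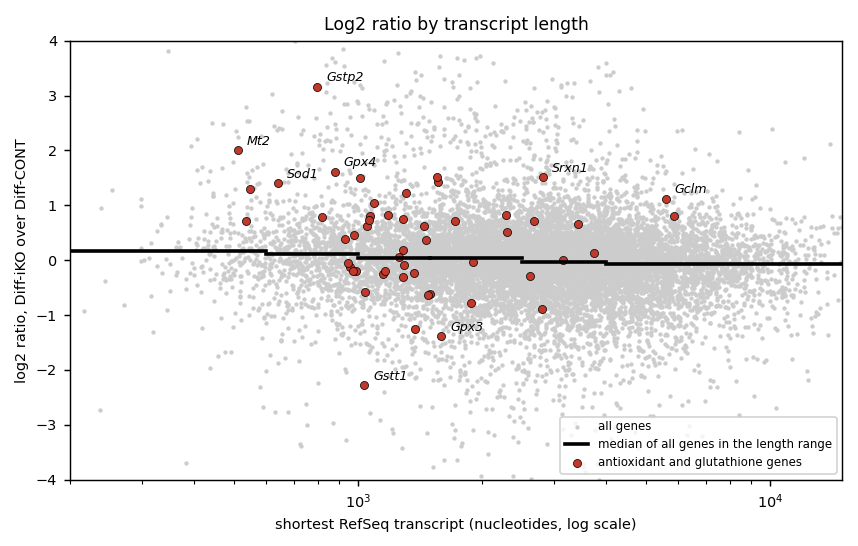
Log2 ratio against the shortest RefSeq transcript (nucleotides, log scale) for all genes (grey, those within 4 of 0) and the members (red), with the median of all genes in each length range as a black line. The median falls from 0.16 at the short end to -0.06 at the long end. Members lie on both sides of it at short and long transcripts, such as Gstp2 and Prdx4 or Srxn1 and Txnip.

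Genes of the same pathways outside the rule were grouped into 7 lists. Together they hold 150 genes, of which 124 reached the minimum, 9 were higher and 3 were lower. These are 7.26% and 2.42%, against 6.73% and 8.39% of all genes tested, so the share of higher genes in the lists was near that of all genes. Of 21 genes for glutathione import, breakdown and glutaredoxins, 3 were higher and 0 lower, with a median log2 ratio of 0.30. They were Slc3a2, the shared heavy chain of the cystine importer, at 70.6 and 141 FPKM and so just at the cut-off, Ggct, which breaks down gamma-glutamyl peptides, at 3.003 and 7.08, and the exporter Abcc4, at 10.8 and 35.6. Slc7a11, the cystine-carrying chain and a known NRF2 target, stayed under the minimum at 0.390 and 0.978. Of 20 NRF2 target genes outside the rule, 3 were higher and 0 lower, with a median of 0.30. These were the transaldolase Taldo1, at 88.9 and 218, the epoxide hydrolase Ephx1, at 15.3 and 35.5, and the carbonyl reductase Cbr3, at 1.02 and 5.81.

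Of 20 genes of NADPH supply, the electron source for both thiol systems, 2 were higher and 0 lower, and the median was -0.10. The 2 were Taldo1 again and Rpe, at 15.0 and 33.1 FPKM, both of the non-oxidative pentose phosphate branch, which makes no NADPH itself. The direct producers G6pdx, Pgd, Me1, Idh1 and Idh2 were within the cut-off. Of 24 partners and regulators of NRF2, 0 were past the cut-off, with a median of 0.09. The list of superoxide sources held 15 genes, which were NADPH oxidase genes, the GTPases Rac1 and Rac2, and Xdh. Of these, 3 reached the minimum, Rac1 among them, and 0 were past the cut-off. Of 21 other selenoproteins and genes of selenocysteine synthesis, 0 were higher and 1 was lower, the deiodinase Dio3 at 4.10 and 1.59. Their median was -0.20. The members that are selenoproteins too lay on both sides of 0, with Gpx1, Gpx2, Gpx4 and Txnrd1 above it, Txnrd2 at -0.04 and Gpx3 at -1.39. Of 23 genes for metal sensing and transport, 2 were higher and 2 lower, with a median of 0.47. The zinc importers Slc39a4, at 11.1 and 24.2, and Slc39a14, at 14.0 and 28.8, were higher. The importer Slc39a8, at 24.6 and 5.85, and the copper pump Atp7b, at 4.18 and 1.84, were lower. The zinc sensor Mtf1 was at 2.82 and 3.93, within the cut-off.

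Markers of other cell types were read beside these values. All 9 visceral endoderm markers and all 4 erythroid markers that reached the minimum were lower, and 7 of 8 undifferentiated ES cell markers were higher, Pou5f1 at 60.8 and 247 FPKM and Nanog at 19.5 and 81.2. Of 8 mesenchyme markers 3 were lower, 1 had a ratio above 0, and their median log2 ratio was -0.97. Their sum of 1700 and 1607 rests largely on Col1a1, the marker with the ratio above 0, at 879.6 and 1199. Of 6 trophoblast markers that reached the minimum 3 were higher and 2 lower, and all 7 summed to 132 and 155. Of the macrophage list, Csf1r, at 2.91 and 12.8, and Cd68, at 10.5 and 27.1, were higher, while the defining markers Adgre1, Ptprc, Cx3cr1 and Lyz2 were all under 0.5 FPKM in both libraries. The part of these cell types in the member values was not tested, and in bulk RNA it cannot be told apart from a change within cells.

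**Figure D5:**
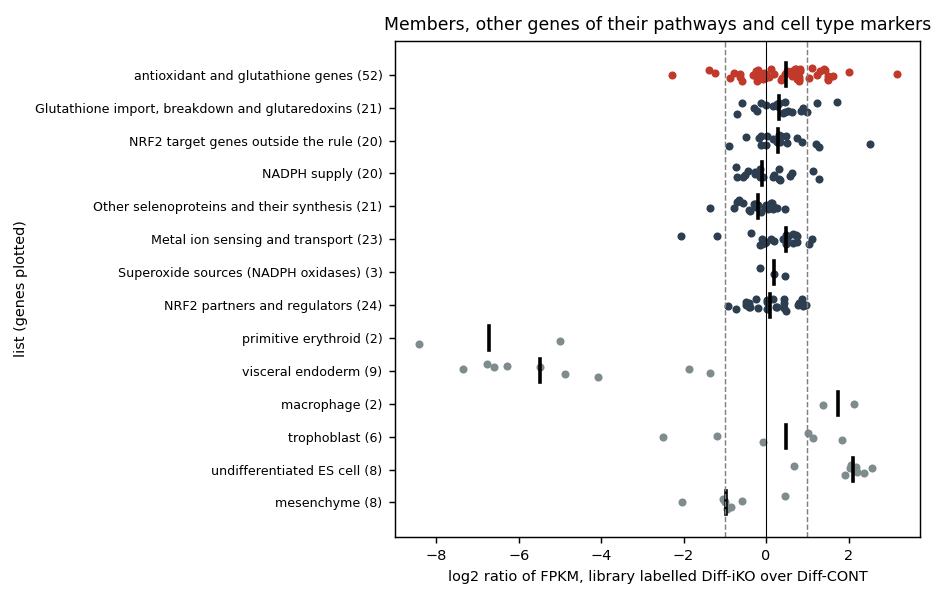
Log2 ratio of FPKM for the members (red), the 7 lists of other genes of the same pathways (dark) and the 6 marker lists (grey), each point a gene that reached an FPKM of 2 with a finite ratio, black bars at list medians and dashed lines at the 2-fold cut-off. The medians of pathway lists lie between -0.20 and 0.47, against 0.49 for the members, while visceral endoderm markers lie at -5.49 and undifferentiated ES cell markers at 2.11. Without members of shared sequence, or with longer transcripts alone, the member median was below the highest list median.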

How the data were processed

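RNA of 2 libraries was compared. Per the methods and the labels, total RNA went through the TruSeq Stranded mRNA kit, and both ends of each fragment were read. The authors aligned reads with STAR 2.7.9a to mm10 and deposited FPKM values for 24354 genes, made in Cufflinks 2.2.1 (Cuffquant, then Cuffnorm). The gene annotation and strand setting are not given in the sources used here. FPKM values hide depth, so whole-fragment steps were fitted on 13470 genes with a single RefSeq transcript of at least 1000 bases. Of low values, 86.5% and 85.3% lay within 0.2 of a whole fragment, against 40% by chance, and fragments of genes with several transcripts are approximate. Reads of near-identical genes may be split between them, and at a given FPKM a shorter transcript rests on fewer fragments.

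The log2 ratio was taken without a pseudocount, and called genes had FC of at least 2 and FPKM of at least 2 in at least 1 library. With 1 library per group no test of conditions is possible. Members and lists were chosen with earlier results of these data known. Members were named when past the cut-off, when in a role group of 6 or fewer, or when among the 3 highest by mean FPKM of a larger group. In each list the genes past the cut-off were named, at most 3. The other members, Slc39a14, Slc7a11, the NADPH producers, Rac1, Rac2, Xdh, Mtf1, Mt4 and the marker genes were named after their values were seen. Symbols were matched to GENCODE vM21 for 23981 genes, 23315 of them directly and the others by RefSeq synonyms. Among the genes of the lists, 11 selenoprotein symbols were matched by synonyms. The steps were tested on simulated data. The tools were scipy 1.17.1, numpy 2.4.6, matplotlib 3.10.9 and pandas 2.3.3 in Python 3.11.15. Columns of values other than those of the 2 libraries numbered 0.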

Additional observations from a re-analysis of the deposited data

How the results depend on the processing

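Of the 12 higher and 3 lower members, the other FPKM minimums, the pseudocounts of 0.1 and 1 and the 3 other scalings left 10 to 15 higher and 2 or 3 lower. An FC of 1.5 gave 25 higher and 7 lower, and an FC of 4 gave 1 and 1, Gstp2 and Gstt1. Shares of all genes are given for the main cut-off only. The counts under other settings in this section thus have no such share beside them, and no enrichment is read from them. Gpx2 and Gstm3 were no longer past the cut-off with a pseudocount of 1, an FPKM of at least 5, or an FPKM of at least 2 in both libraries, Gstm7 with the first 2 of these, Gstt1 with the last, and Mgst3 with equal FPKM sums. A pseudocount of 1 moved the log2 ratio of Gstt1 from -2.28 to -1.63. The sign of Keap1, near 0, changed with equal upper quartiles. The member median of 0.49 became 0.4888 and 0.482 with pseudocounts of 0.1 and 1, 0.5116 with no minimum, 0.564 with an FPKM of at least 5, 0.4179, 0.4833 and 0.5073 with equal sums, a median of 0 and equal upper quartiles. After the data were seen, members sharing over 10% of their 50-base words were left out, which gave 7 higher and a median of 0.2708, and members of over 1000 bases alone gave 7 higher and a median of 0.36. For the 124 genes of the pathway lists, 9 higher and 3 lower became 24 and 12 with an FC of 1.5 and 1 and 1 with an FC of 4. With no minimum, 18 and 8 of 144 genes were past the cut-off. Slc3a2 was no longer called with either pseudocount, with a median of 0 or with equal sums, Slc39a14 with a pseudocount of 1 or equal sums, and Cbr3 with an FPKM of at least 2 in both libraries. Lower genes numbered 1, without Atp7b and Dio3, with a pseudocount of 1, with an FPKM of at least 5 and with an FPKM of at least 2 in both libraries. Adding rows of 1 symbol was not run, since 0 symbols occurred more than once. No paired analysis was possible because each group had 1 library. With 1 library per group, depth sets the counting error only, which was widest for low genes such as Gpx2, and no value shows how much cultures of 1 line differ.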
